A study of Mus musculus with 9 samples.

Results

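The 10 genes described here are targets and feedback regulators of the ERK pathway, namely the ETS factors Etv1, Etv4 and Etv5, the phosphatases Dusp4, Dusp5 and Dusp6, the Sprouty genes Spry1, Spry2 and Spry4, and Spred1. They were chosen by gene name, and all 10 were found among the 49548 genes of the deposited tables. RNA came from cultured synovial fibroblasts (SFs) grown from mouse ankles, with donors aged 8 weeks on a CBA C57BL/6J background, in 3 groups of 3 biological replicates. WT SFs carried no transgene and were labelled as untreated. hTNFtg SFs came from mice with a human TNF transgene, which develop destructive polyarthritis, and were labelled as untreated, whereas the methods describe a vehicle for 48 hours. The third group held hTNFtg SFs given infliximab, a therapeutic antibody against human TNF, at 1 µg/mL for 48 hours. CD45+ cells were depleted from the cultures at passage 1, and whether a replicate came from 1 mouse or from a pool was not given in the sources used here.

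ERK is the last kinase of a cascade that runs from receptor tyrosine kinases through RAS, RAF and MEK. Once active, it raises transcription of immediate early genes and ETS factors, and also of the genes that switch the pathway off again, so that the RNA of these targets is commonly read as a record of ERK output. Dusp proteins remove the phosphates from ERK itself, whereas Sprouty and Spred proteins act higher up, between the receptors and RAF. In SFs, growth factors and inflammatory cytokines such as TNF and IL-1 are known to activate ERK.

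Values are normalized counts, that is reads per gene scaled by 1 factor per library. Libraries were made by 3′ mRNA sequencing, which reads the end of each transcript. One read was worth 6.23 normalized counts in hTNFtg replicate 1, a library of about 613347 reads, and 0.534 to 1.10 in the other 8, with about 3829163 to 9015764 reads. A count of 3 reads, taken as the floor, therefore stood at 18.7 normalized counts in that library and at 1.60 to 3.31 elsewhere. Summed markers of fibroblasts were at 35893 to 52743 in all 9 libraries, with all 10 markers found. Summed markers of macrophages (10 of 10 found, led by Lyz2) were at 194 to 657 in WT, 3104 to 6369 in hTNFtg and 2067 to 4294 with infliximab, and Ptprc, which encodes CD45, was at 0 to 3, 9 to 31 and 8 to 28 in these groups. The macrophage receptor Cd163 was at 0 to 3 in all libraries, and each of the other macrophage markers had a higher mean in both hTNFtg groups than in WT. The exception was a second entry under the name Itgam, which was at 0 to 5 in all libraries. Summed markers of chondrocytes (6 of 7 found, led by Comp and Sox9) were at 6215 to 9345 in WT, 548 to 1209 in hTNFtg and 903 to 2517 with infliximab. Comp and Sox9 carried nearly all of that sum. The cartilage matrix genes Acan, at 5 to 16 in WT, 0 to 1 in hTNFtg and 0 to 4 with infliximab, and Col9a1, at 1 to 19, 0 and 0 to 1, were also highest in WT, though few reads lie behind them. Col2a1, the defining cartilage collagen, overlapped between the groups at 51 to 94, 37 to 88 and 49 to 133, and Matn1 was at 0 to 2 in all libraries. Summed markers of osteoclasts (7 of 7 found, led by Ctsk and Acp5) were at 157 to 341 in WT, 324 to 480 in hTNFtg and 274 to 662 with infliximab. Ctsk overlapped between the groups, at 152 to 234, 145 to 237 and 152 to 287, whereas Acp5 was at 3 to 96, 110 to 246 and 82 to 333. Dcstamp and Ocstamp were at 0 to 4 in WT and at 0 to 30 in the hTNFtg groups. Summed markers of endothelial cells, skeletal muscle and lymphocytes were at 59 or less in all libraries. The part of these markers in the results below was not tested. Hepatocyte markers summed to 625 in infliximab replicate 3 and to 11 to 35 in the others, and no gene of the 10 that was called lost its call without that library.

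Promoter sequences are shown for 4 of the genes, the 3 with an entry that rose in infliximab-treated hTNFtg SFs against WT (Dusp6, Etv5 and Spry1) and Dusp5, which was close to level in all 3 groups. Each covers 250 bases before to 50 bases after a start site, from the RefSeq promoter table for GRCm38.p6. The 9 entries used here belong to 7 of the 10 genes. Whether that table holds entries for the remaining members is not reported here. They lie at chr10:99262981-99263280 on the plus strand (Dusp6), chr16:22439521-22439820 on the minus strand (Etv5, the first of 2 starts), chr3:37639697-37639996 on the plus strand (Spry1) and chr19:53528895-53529194 on the plus strand (Dusp5), all printed 5′ to 3′ on the gene's strand, with motif matches in capitals.
Dusp6: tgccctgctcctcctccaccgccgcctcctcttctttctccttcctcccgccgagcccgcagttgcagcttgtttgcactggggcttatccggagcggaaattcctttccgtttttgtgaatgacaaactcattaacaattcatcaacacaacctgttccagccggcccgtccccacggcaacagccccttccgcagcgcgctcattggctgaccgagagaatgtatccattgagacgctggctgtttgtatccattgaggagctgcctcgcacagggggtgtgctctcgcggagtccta
Etv5: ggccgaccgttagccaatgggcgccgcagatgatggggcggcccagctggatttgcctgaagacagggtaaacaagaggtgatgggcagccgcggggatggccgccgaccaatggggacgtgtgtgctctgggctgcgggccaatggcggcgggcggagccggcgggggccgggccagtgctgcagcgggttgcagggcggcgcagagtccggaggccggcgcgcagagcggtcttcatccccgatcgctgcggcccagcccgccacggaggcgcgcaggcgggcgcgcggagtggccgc
Spry1: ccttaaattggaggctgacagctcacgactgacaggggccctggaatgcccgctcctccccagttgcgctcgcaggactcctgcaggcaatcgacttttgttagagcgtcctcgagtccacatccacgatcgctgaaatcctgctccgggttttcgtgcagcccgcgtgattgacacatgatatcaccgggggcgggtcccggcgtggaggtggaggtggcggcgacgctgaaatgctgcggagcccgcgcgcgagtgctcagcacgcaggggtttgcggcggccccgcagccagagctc
Dusp5: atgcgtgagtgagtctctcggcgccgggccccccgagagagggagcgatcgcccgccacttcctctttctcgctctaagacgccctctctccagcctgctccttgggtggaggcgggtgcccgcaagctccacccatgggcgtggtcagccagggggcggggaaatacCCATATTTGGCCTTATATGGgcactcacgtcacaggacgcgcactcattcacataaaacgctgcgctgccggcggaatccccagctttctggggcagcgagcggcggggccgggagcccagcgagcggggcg

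The capitals in Dusp5 mark a pair of adjacent CArG boxes, the motif bound by serum response factor, which start 82 and 72 bases before the start site. A CArG box was found in 1 of the 9 promoters and in 1.63% of all 32851 promoters in the table. The ETS core CCGGAA was found in 1 of the 9 promoters, that of Spry2, and in 14.9% of all promoters. The AP-1 site TGANTCA, found in 7.81% of all promoters, and the cAMP response element TGACGTCA, found in 1.79%, were in 0 of the 9. A loose NF-kB motif, GGGNNNNNCC, which is not capitalized, was in 7 of the 9 and in 50.8% of all promoters, and its matches in Dusp5 reach into the first CArG box. Both strands were searched. These are matches of letters in a 300-base window and carry no measure of binding.

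Dusp6, the cytoplasmic phosphatase specific to ERK and its best known negative feedback gene, had the smallest P of the 10 genes between hTNFtg and WT SFs. In WT it stood at 40, 68 and 61 normalized counts in replicates 1 to 3, in untreated hTNFtg at 131, 291 and 451, and with infliximab at 189, 151 and 236. All hTNFtg libraries, with and without infliximab, lay above all WT libraries, whereas the 2 hTNFtg groups overlapped. The means were 56.3 ± 14.6 in WT, 291 ± 160 in hTNFtg and 192 ± 42.6 with infliximab (SD, n = 3 each). By limma, fitted to log2(normalized count + 1), Dusp6 was higher in hTNFtg than in WT by 2.21 on the log2 scale (SE 0.44, 95% interval 1.24 to 3.18, unadjusted P = 0.000365, adjusted p = 0.0606). A gene was called raised or lowered when its unadjusted P was under 0.05 and its log2 fold change was at least 1 in size, the rule of the study's methods, and by this rule Dusp6 was raised. The lowest hTNFtg value came from replicate 1 and rests on 21 reads, with a 95% counting interval of 81.0 to 199.9 normalized counts. Without that library the difference was 2.70, and without any one library it was 1.81 to 2.70.

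**Figure D1:**
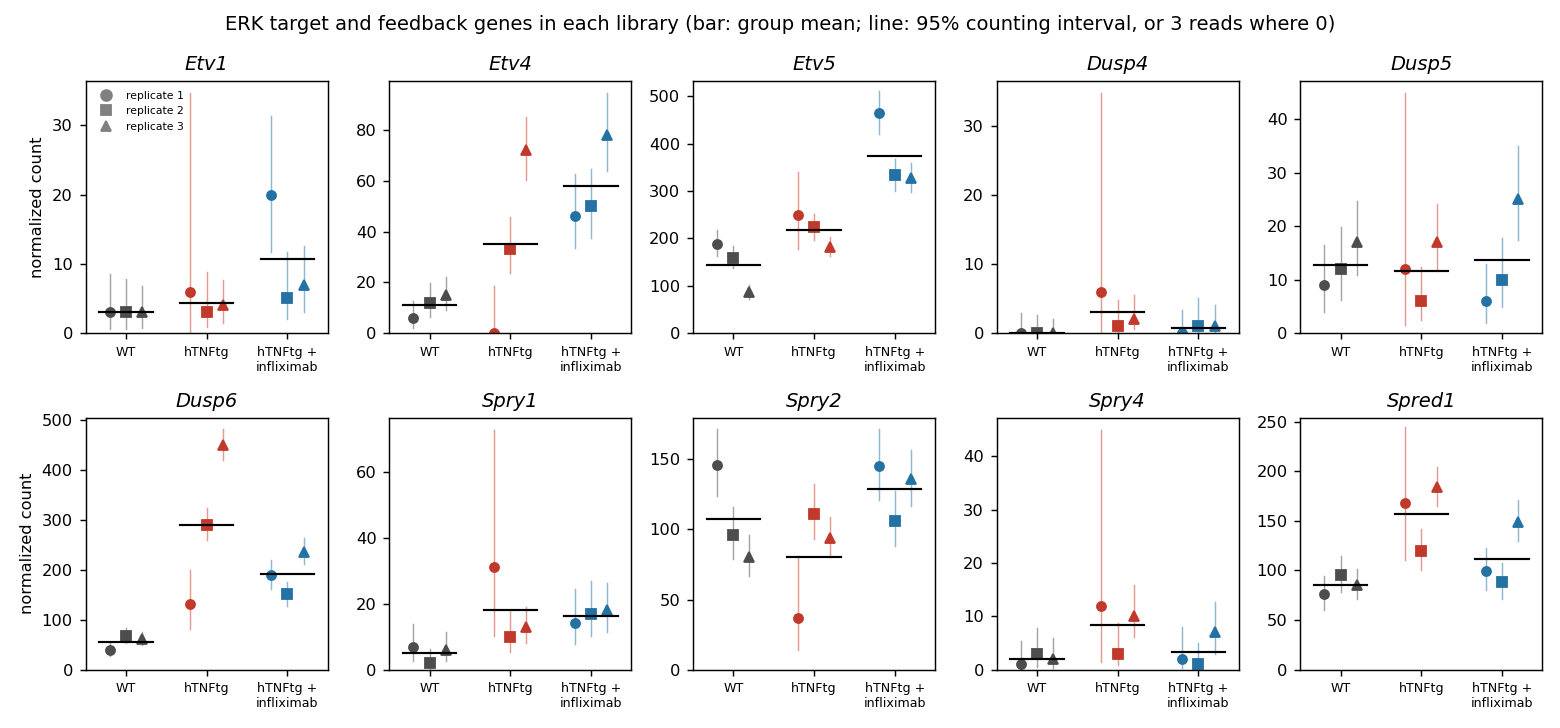
Normalized count (y axis, linear, each panel with its own scale from 0) of the 10 ERK targets and feedback genes in the 9 libraries, grouped as WT (grey), hTNFtg (red) and hTNFtg with infliximab (blue), with the symbol giving the replicate number, the black bar the group mean and the thin line the 95% counting interval from approximate reads, or 3 reads where the count was 0. Dusp6 lies at 40 to 68 in WT and at 131 or more in every hTNFtg library, Etv5 lies at 86 to 189 in WT and at 327 to 464 with infliximab, and the long lines of hTNFtg replicate 1 show its low depth.

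Dusp4 and Dusp5 encode phosphatases that act on ERK in the nucleus. Dusp4 was at 0 in all 3 WT libraries, at 6, 1 and 2 normalized counts in hTNFtg and at 0, 1 and 1 with infliximab. It was past the rule in hTNFtg against WT (unadjusted P = 0.016, adjusted p = 0.401, limma), but the hTNFtg values amount to 1, 1 and 4 reads, so no fold is given. Its call was lost without WT replicate 2 or 3 (unadjusted P = 0.0508 and 0.0534). Dusp5 was at 9, 12 and 17 in WT, at 12, 6 and 17 in hTNFtg and at 6, 10 and 25 with infliximab. The 3 groups of Dusp5 overlapped throughout, and its log2 fold change against WT was -0.17 (95% interval -1.68 to 1.34) in hTNFtg and -0.08 (-1.34 to 1.19) with infliximab, so that changes of over 2-fold in either direction lie within the intervals.

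Etv5, an ETS factor of the PEA3 family that is induced by ERK in many tissues, had its lowest mean in WT and its highest with infliximab. It stood at 189, 159 and 86 normalized counts in WT, at 249, 223 and 182 in hTNFtg and at 464, 333 and 327 with infliximab. WT and hTNFtg overlapped only at 182 to 189, and each infliximab library lay above every library of the other groups. Means were 145 ± 53.0, 218 ± 33.8 and 375 ± 77.4 (SD, n = 3 each). The log2 difference was 0.65 (SE 0.35) for hTNFtg against WT and did not pass the test (unadjusted P = 0.0869, adjusted p = 0.726, limma). It was 1.42 (SE 0.29) for infliximab-treated hTNFtg against WT, which was a raised call (unadjusted P = 0.000745, adjusted p = 0.0699). Between infliximab-treated and untreated hTNFtg it was 0.77 (SE 0.28, 95% interval 0.16 to 1.38), with an unadjusted P of 0.0172 and an adjusted p of 0.803 by limma, under the fold that the rule asks for.

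Etv4, a second PEA3 factor, was at 6, 12 and 15 normalized counts in WT, at 0, 33 and 72 in hTNFtg and at 46, 50 and 78 with infliximab. The infliximab libraries all lay above WT, and hTNFtg replicates 2 and 3 did as well, whereas the 0 of hTNFtg replicate 1 allows up to 18.7 normalized counts at its depth. Against WT, Etv4 was raised with infliximab by 2.34 on the log2 scale (SE 0.41, adjusted p = 0.0393, limma), which became 1.99 to 2.59 when single libraries were left out. In a fit over all 9 libraries, which takes in the spread of the untreated hTNFtg group, this call was lost (unadjusted P = 0.0675). For hTNFtg against WT the log2 difference was 0.26 (SE 1.32, adjusted p = 0.963, limma) with all libraries and 2.14 without hTNFtg replicate 1 (unadjusted P = 0.0114, adjusted p = 0.256). It turned to -0.09, -0.41 and -0.96 without WT replicate 1, hTNFtg replicate 2 and hTNFtg replicate 3. The quasi-likelihood test of edgeR on approximate reads, which weighs a library by its depth, gave 1.83 with an adjusted p of 0.0385 (adjusted p of 0.256 to 1 in the other alternatives, libraries left out included). For infliximab-treated against untreated hTNFtg, Etv4 differed by 2.08 (95% interval -0.39 to 4.56), by 0.20 without hTNFtg replicate 1 and by 3.30 without replicate 3.

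Etv1, the third PEA3 factor, was low in all groups, at 3 in each WT library, at 6, 3 and 4 in hTNFtg and at 20, 5 and 7 with infliximab. The infliximab values lay above the WT values, but 20 of replicate 1 stood apart from the other infliximab values. The 5 of infliximab replicate 2 is 6 reads, against 3, 3 and 4 reads in WT. Its log2 difference from WT was 1.33 with infliximab (SE 0.62, unadjusted P = 0.0598, limma), short of the rule, though past it by edgeR (1.88, unadjusted P = 0.0237) and without infliximab replicate 2 (1.70, unadjusted P = 0.0303). It was 0.79 without infliximab replicate 1, the library at 20 (unadjusted P = 0.13), and 0.85 with a pseudocount of 5. In untreated hTNFtg the difference of Etv1 from WT was 0.38 (SE 0.79).

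Spry1, an inhibitor of growth factor signaling upstream of RAF, was at 7, 2 and 6 normalized counts in WT, at 31, 10 and 13 in hTNFtg and at 14, 17 and 18 with infliximab. Every hTNFtg library of either kind lay above every WT library. Against WT it was raised with infliximab by 1.64 on the log2 scale (SE 0.54, unadjusted P = 0.0129, adjusted p = 0.246, limma). In untreated hTNFtg the difference was of the same size, 1.62, with a wider error (SE 0.79, unadjusted P = 0.0629), and the 31 of replicate 1 rests on 5 reads. That difference passed the rule with the replicate number as a block (unadjusted P = 0.0337, limma), in a fit over all 9 libraries (unadjusted P = 0.0271) and with array quality weights. The 2 hTNFtg groups differed by 0.02 (95% interval -1.34 to 1.38).

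Spry2, which holds back RAS and RAF signaling from FGF receptors, showed no call in any comparison. It was at 146, 96 and 80 in WT, at 37, 111 and 94 in hTNFtg and at 145, 106 and 136 with infliximab. The groups overlapped, and the lowest value, the 37 of hTNFtg replicate 1, rests on 6 reads, with a 95% counting interval of 13.7 to 81.3. Its log2 difference between hTNFtg and WT was -0.50 (95% interval -1.48 to 0.47) with that library and -0.02 without it. Between infliximab-treated and untreated hTNFtg it was 0.80 with all libraries (unadjusted P = 0.0685, limma) and 0.32 without hTNFtg replicate 1, and it passed the rule at 1.10 without hTNFtg replicate 2 (unadjusted P = 0.0332).

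Spry4, a further Sprouty gene, was near the limit of detection, at 1, 3 and 2 normalized counts in WT, at 12, 3 and 10 in hTNFtg and at 2, 1 and 7 with infliximab. The 12 of hTNFtg replicate 1 was 2 reads and the 10 of replicate 3 was 19 reads. No comparison of Spry4 passed the rule, with an unadjusted P of 0.102 for hTNFtg against WT, 0.228 for infliximab-treated against untreated and 0.633 for infliximab-treated hTNFtg against WT (limma).

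Spred1, which binds neurofibromin and RAS at the membrane and lowers RAF activation, was at 76, 95 and 85 normalized counts in WT, at 168, 120 and 184 in hTNFtg and at 99, 88 and 149 with infliximab. The untreated hTNFtg libraries lay above all WT libraries, and the infliximab libraries overlapped both other groups. Its log2 difference in hTNFtg against WT was 0.86 (SE 0.31, unadjusted P = 0.0183, adjusted p = 0.43, limma), just under the fold of the rule, and passed it at 1.04 without hTNFtg replicate 2. With infliximab the difference from WT was 0.36 (95% interval -0.19 to 0.91) and that from untreated hTNFtg was -0.50 (-1.20 to 0.19).

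**Figure D2:**
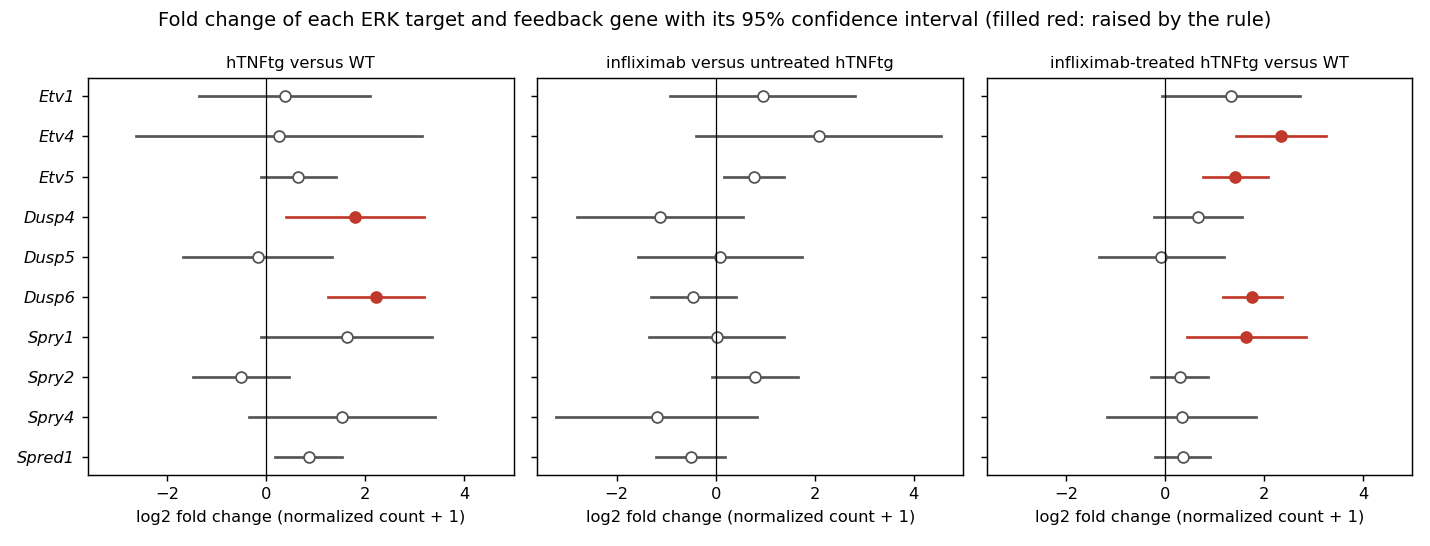
Log2 fold change (x axis, on the normalized count plus 1) of the 10 genes in the 3 comparisons, first-named group over second, with points for the limma estimate, lines for its 95% interval and filled red points for genes raised by the rule. Dusp6 is raised at 2.21 and 1.76 against WT, Etv4, Etv5 and Spry1 are raised in the right panel, and the middle panel has no call. The point of Dusp4 depends on the 1 added to each count.

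Counted over the 10 genes, hTNFtg against WT had 2 raised (Dusp6 and Dusp4) and 0 lowered, where 3.35% of the 28522 genes tested were raised and 3.04% lowered. Of the 10, 8 had a log2 fold change above 0, with a median of 0.75 (0.51 with Dusp4 at the bound that its floor allows) against -0.00 for all genes. None had an adjusted p under 0.05 by limma (0.48% of all genes did), 3 had an unadjusted P under 0.05 (Dusp6, Dusp4 and Spred1, against 7.72% of all genes), and edgeR gave 2 with an adjusted p under 0.05 (Dusp6 and Etv4, against 3.23%). In 4 of the 10 (Dusp4, Dusp6, Spry1 and Spred1) all hTNFtg libraries lay above all WT libraries, as they did in 5.63% of all genes, but for Dusp4, with 1 read in each of 2 libraries, that separation was not measurable at this depth. Many of the genes tested were near 0, and among the 13634 with a mean of at least 10 the share raised was 4.96% and the share with all hTNFtg libraries above all WT libraries 9.42%.

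For infliximab-treated against untreated hTNFtg SFs, the comparison that asks what blocking TNF changed, limma called 0 of the 10 raised and 0 lowered, where 1.49% of 28540 genes were raised and 0.936% lowered. Over all genes that balance, 426 raised and 267 lowered, turned round without hTNFtg replicate 1, at 481 and 930. It also turned with array quality weights (735 and 1390) and by edgeR (518 and 710). By an unadjusted P under 0.05 there was 1 of the 10, Etv5 (3.59% of all genes), and by an adjusted p there was 0 of the 10, as there was 0 of all genes (0%), and edgeR also gave 0 of the 10 (0.578% of all genes). Etv5 was the only gene of the 10 whose groups did not overlap, with all infliximab libraries above. That held for 3.99% of all genes and for 6.45% of the 13606 genes with a mean of at least 10. Dusp6 had a mean ratio of 0.660 between treated and untreated cells. Its log2 difference was -0.45 (95% interval -1.31 to 0.41, unadjusted P = 0.282, limma) with all libraries and ran from -0.94 (unadjusted P = 0.022, adjusted p = 0.53) without hTNFtg replicate 1, the lowest of its group, to -0.05 (unadjusted P = 0.895) without hTNFtg replicate 3, the highest. It was -0.29 without infliximab replicate 2 and -0.36 without hTNFtg replicate 2. The median of the 10 was 0.06, with 6 above 0.

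Infliximab-treated hTNFtg against WT SFs had 4 of the 10 raised, Dusp6 (1.76, SE 0.27), Etv4, Etv5 and Spry1, and 0 lowered, where 3.86% of 28243 genes were raised and 2.95% lowered. An adjusted p under 0.05 was reached by Dusp6 (0.0265) and Etv4 (0.0393), as by 0.74% of all genes, and edgeR gave 3 of the 10 (Dusp6, Etv4 and Etv5, against 4.68% of all genes), while 4 had an unadjusted P under 0.05 (11.9%). When any one library was left out, the adjusted p of Dusp6 was 0.0955 to 0.343 and that of Etv4 0.107 to 0.343. The calls of Dusp6, Etv5 and Spry1 by the rule held in all 14 alternatives, including each library left out. In 5 of the 10 (those 4 and Etv1) the infliximab libraries all lay above WT, against 7.14% of all genes and 11.3% of the 13470 genes with a mean of at least 10. For Etv1 the 95% counting intervals overlapped, at 1.99 to 11.8 in infliximab replicate 2 and 0.599 to 8.49 in WT replicate 1. The median of the 10 was 1.00 and 9 had a log2 fold change above 0, but Dusp4 was at the floor in both groups, and with it at 0 the median was 0.84 and 8 were above 0. The 3 comparisons share libraries in pairs, so their values for one gene are not independent of each other. The group with the highest mean was untreated hTNFtg for 5 of the 10 genes (Dusp4, Dusp6, Spry1, Spry4 and Spred1) and infliximab-treated hTNFtg for the other 5 (Etv1, Etv4, Etv5, Dusp5 and Spry2), but for none of the 10 did the 2 hTNFtg groups differ by the rule. That the 3 Etv genes were all highest with infliximab and that Dusp6 and Spred1 were highest without it is a description of means. In bulk samples, fewer cells of a type and less RNA per cell cannot be told apart.

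The rest of the pathway was read from 6 lists of 67 genes, of which 66 were in the tables and 64 could be tested. Spry3, the remaining Sprouty gene on the lists, was not analysed here. In hTNFtg against WT, 5 of the 64 were raised and 3 lowered, with a median log2 fold change of 0.20 (5 called in all without WT replicate 3), beside the 3.35% raised and 3.04% lowered of all genes. In infliximab-treated against untreated cells limma called 0 in either direction, 0 had an unadjusted P under 0.05 and 0 had an adjusted p under 0.05 by edgeR. Of all genes, 1.49% were raised and 0.936% lowered there, 3.59% had an unadjusted P under 0.05 and 0.578% had an adjusted p under 0.05 by edgeR. In infliximab-treated hTNFtg against WT, 6 were raised and 2 lowered, with a median of 0.12 (13 called in all without WT replicate 1), beside 3.86% and 2.95% of all genes.

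Among the receptors, the FGF receptors Fgfr2 and Fgfr3 were lowered, in hTNFtg against WT by -3.06 (adjusted p = 0.0192, limma) and -4.72 (adjusted p = 0.0278), and with infliximab against WT by -2.18 (adjusted p = 0.017) and -3.20 (adjusted p = 0.018). Fgfr3 was at 0, 8 and 2 normalized counts in hTNFtg, or 0, 9 and 4 reads, so the size of its fall is uncertain (-5.51 to -3.92 with single libraries left out), with WT at 88, 57 and 94. Both receptors moved with the chondrocyte marker sum, that is with Comp and Sox9 and, at few reads, Acan and Col9a1, but not with Col2a1, and their relation to it was not tested. Igf1r, the IGF1 receptor, was raised by 1.25 in hTNFtg against WT (unadjusted P = 0.00196, adjusted p = 0.148, limma). With infliximab its difference from WT was 0.95 (unadjusted P = 0.00227, limma), just under the fold of the rule, with all infliximab libraries above WT. Gab1, a docking adaptor, was lowered by -1.11 in hTNFtg against WT (unadjusted P = 0.0279, adjusted p = 0.516, limma), a call lost without hTNFtg replicate 1 (-0.73), without WT replicate 1 or 3, without hTNFtg replicate 2 and by edgeR (-0.97). No other adaptor or exchange factor was called.

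The 13 genes of the kinase cascade had 0 calls in each comparison by limma, 0 with an unadjusted P under 0.05 and 0 with an adjusted p under 0.05 by edgeR. Mapk3, which encodes ERK1, differed between hTNFtg and WT by -0.41 (95% interval -1.51 to 0.69). Map2k1 and Map2k2, which encode the MEK kinases above it, differed by -0.15 (SE 0.47) and -0.04 (SE 0.44). Map3k8, the MEK kinase that TNF receptors engage, was low, at 12, 0 and 0 in WT, at 19, 8 and 1 in hTNFtg and at 7, 4 and 5 with infliximab, and did not pass the rule (2.83, unadjusted P = 0.0429, in hTNFtg against WT without WT replicate 1 and 2.64, unadjusted P = 0.00177, with infliximab against WT without it). Mapk3 passed it at -1.03 without hTNFtg replicate 3 (unadjusted P = 0.0172). RNA levels of these kinases do not measure phosphorylated ERK.

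Among the brakes outside the 10, Dusp1, a nuclear phosphatase of stress-activated kinases and ERK, was raised against WT by 2.05 in hTNFtg (adjusted p = 0.056, limma) and by 2.01 with infliximab (adjusted p = 0.0556). Spred2, a close relative of Spred1, was at 5, 5 and 7 in WT, at 6, 11 and 9 in hTNFtg and at 22, 17 and 25 with infliximab, with the infliximab libraries above both other groups. The 6 of hTNFtg replicate 1 is 1 read, under the floor of 18.7 normalized counts there, so the separation of Spred2 from untreated hTNFtg was not measurable in that library. It was raised with infliximab against WT by 1.74 (SE 0.44, adjusted p = 0.129, limma), and its difference of 1.23 from untreated hTNFtg did not pass the test (unadjusted P = 0.0777). Without hTNFtg replicate 1 that difference was 1.01 (unadjusted P = 0.0346). Il17rd, which encodes the FGF antagonist Sef, was raised by 1.38 with infliximab against WT (adjusted p = 0.236, limma), a call lost without WT replicate 2 (0.91) or infliximab replicate 3 (1.23). Spred3 was not called, with 0.78 (SE 0.71) in hTNFtg and 0.86 (SE 0.33) with infliximab against WT. It stood at 22, 23 and 35 in WT and at 12, 58 and 129 in hTNFtg, where the 12 is 2 reads, and its difference was 1.69 without hTNFtg replicate 1 (unadjusted P = 0.0119), 0.03 without hTNFtg replicate 3 and 1.39 by edgeR (unadjusted P = 0.00252, adjusted p = 0.0704). With infliximab it passed the rule at 1.06 without WT replicate 3 and at 1.01 without infliximab replicate 1.

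Of the 9 output genes outside the 10, 3 were raised, 0 lowered and 6 not called in hTNFtg against WT, beside 3.35% of all genes raised. The counts were the same with infliximab against WT, beside 3.86% raised. Among them Ccnd1, which encodes cyclin D1, was at 1017 to 1237 normalized counts in WT, at 2965 to 3566 in hTNFtg and at 2755 to 3470 with infliximab. It was raised against WT by 1.61 in hTNFtg (adjusted p = 0.0646, limma) and by 1.45 with infliximab (adjusted p = 0.018). Ier3, an immediate early gene, was raised in both as well, by 1.19 and 1.30. The call of Ier3 was lost without WT replicate 3 in both comparisons (0.78 and 0.89), and in hTNFtg also without WT replicate 2 or hTNFtg replicate 2. Fos, a subunit of AP-1, was raised in hTNFtg by 2.29 with overlapping groups (unadjusted P = 0.0379). It stood at 22, 9 and 1 in WT and at 118, 15 and 27 in hTNFtg, and its call was lost without hTNFtg replicate 1 (1.46), WT replicate 3 (1.31), WT replicate 2 or hTNFtg replicate 3. By edgeR with all libraries the difference of Fos was 2.05 (adjusted p = 0.027). Phlda1 was raised with infliximab against WT by 1.23 (adjusted p = 0.137, limma) and stood at 0.50 (SE 0.62) in untreated hTNFtg, where replicate 1 had 2 reads and the value was 1.24 without it (unadjusted P = 0.00941). The infliximab call was 0.997 without infliximab replicate 3, just under the fold of the rule. Epha2 was not called, at -0.11 and 0.14 against WT, nor was Epha4, at -0.26 and -0.86. Those last 2, Ccnd1 and Phlda1 belong, with 6 of the 10 genes (Etv4, Etv5, Dusp4, Dusp6, Spry2 and Spry4), to a published score of ERK output, and in that score genes that were raised, that were near 0 and that were not called stood side by side.

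**Figure D3:**
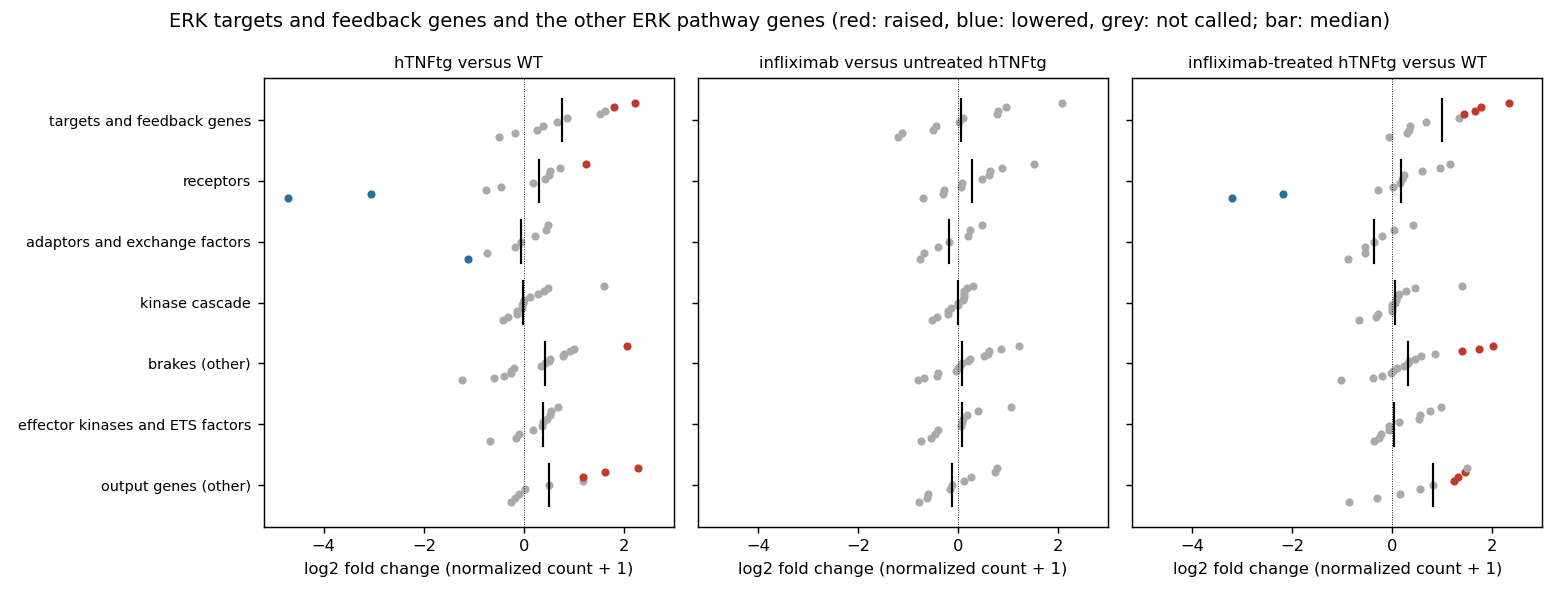
Log2 fold change (x axis, on the normalized count plus 1) of the 10 targets and feedback genes and of the 64 other pathway genes tested, by list, in the 3 comparisons, with red for raised, blue for lowered and grey for genes not called, and a bar at each list's median. The 2 strongly lowered receptors are Fgfr2 and Fgfr3, the kinase cascade centers on 0 in all panels, and the middle panel holds no call.

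Dusp6 and Etv5, the genes with the most reads behind their calls, were set beside macrophage markers library by library. In untreated hTNFtg replicates 1 to 3, where Dusp6 was at 131, 291 and 451, Lyz2 was at 5356, 2284 and 2356, Cd68 at 149, 186 and 517 and C1qa at 212, 330 and 1458. Over the whole list, 5 of the 10 macrophage markers (Lyz2, Adgre1, Csf1r, Itgam and Ptprc) were highest in replicate 1, where Dusp6 was lowest, and 4 (Cd68, C1qa, Cx3cr1 and Mrc1) were, like Dusp6, highest in replicate 3. The remaining marker, Cd163, was at 0 to 1 in these libraries. Etv5 in the same libraries was highest in replicate 1, at 249. Their macrophage sum was at 6369, 3104 and 4903, an order other than that of Dusp6. In the other groups the sum had the same order as Dusp6. Dusp6 was at 40, 68 and 61 in WT, beside sums of 194, 657 and 325. With infliximab Dusp6 was at 189, 151 and 236, beside sums of 3554, 2067 and 4294. Etv5 was highest in replicate 1 there too, at 189 in WT and 464 with infliximab. The part of these markers in the values of Dusp6 and Etv5 was not tested.

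**Figure D4:**
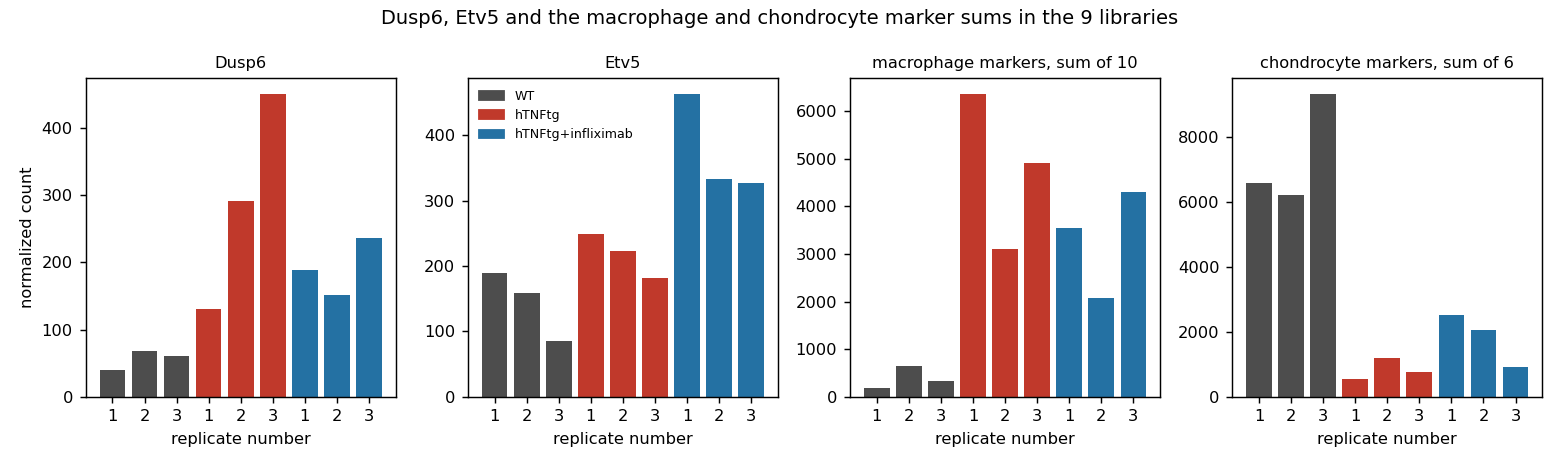
Normalized count (y axis, from 0, each panel with its own scale) of Dusp6, Etv5, 10 summed macrophage markers and 6 summed chondrocyte markers in each library, with bars colored by group and numbered by replicate. Macrophage markers are at 194 to 657 in WT and at 2067 to 6369 in hTNFtg with or without infliximab, and the chondrocyte sum, nearly all of it Comp and Sox9, runs the other way, from 6215 to 9345 in WT to 2517 at most in the others.

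By position, the 10 genes lie on 10 chromosomes in the mm10 coordinates of the deposited tables, so none are neighbors. Dusp6 spans chr10:99263231-99267488 on the plus strand, Etv5 chr16:22381309-22439719 on the minus strand, Etv4 chr11:101769742-101785371 on the minus strand and Spry1 chr3:37639947-37644598 on the plus strand. In the GENCODE M21 annotation another gene on the opposite strand overlaps Dusp5 (AC137853.2), Spry1 (Gm42922) and Spry4 (Gm27369 and Gm27804), none of them within the last 1000 bases, where 3′ reads fall. Whether the counting used strand was not given in the sources used here.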

How the data were processed

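The authors sequenced 3′ mRNA libraries (QuantSeq, Ion Proton) of 9 SF cultures, mapped reads to mm10 with TopHat2 and Bowtie2, counted per gene and ran DESeq through metaseqR. The values deposited by the authors are a score, counts normalized by 1 factor per library and rounded. For hTNFtg replicate 1 the values form a signal, as the authors deposited it, of whole reads times a factor. In the other libraries reads are approximate. The 3 hTNFtg libraries in both tables were equal and used once. The 12 further per-sample columns and the authors' own fold changes, p-values and other statistics were not used.

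Groups of 3 libraries were compared with limma 3.58.1 (lmFit, eBayes with trend) in R 4.3.3 on log2(normalized count + 1), over genes with any value above 0 in the 6 libraries, with Benjamini-Hochberg adjustment over all of them. Steps per read were estimated from gaps in the rounded values, which on simulated data of 49548 genes gave 35 of 36 steps to within 1 percent (the miss was a step close to 1). Approximate reads entered edgeR 4.0.16 as an alternative. Other alternatives were pseudocounts of 5 and 0.5, a mean of at least 10, median ratio rescaling, array quality weights, all 9 libraries in one fit, the replicate number as a block and leaving out each library. Tested on simulated data for hTNFtg versus WT (27050 genes, 200 changed 4-fold), the rule found 97% of the changed genes with 665 unchanged ones, the adjusted p of limma 38.5% with 0, and that of edgeR 82% with 4. The changed genes all had a mean of at least 10, and the simulated dispersion was the same for every gene. These shares therefore do not cover genes with lower means, such as Etv1, Dusp4 and Spry4, or genes that vary more within a group. Intervals and floors cover counting error only.

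The members and lists were chosen with earlier results of these data known. The genes named were all 10 members, the kinases Mapk3, Map2k1, Map2k2 and Map3k8, the remaining Sprouty and Spred genes, the other genes of the output score, and listed genes called with a mean of at least 10 in 1 group, at most 8 per comparison. One further gene that the rule names is not reported here. Promoters to print and the genes beside marker sums were chosen after their values were seen.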

Additional observations from a re-analysis of the deposited data

How the results depend on the processing

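Of the calls on single genes, those of Dusp6 in hTNFtg versus WT and of Dusp6, Etv5 and Spry1 in infliximab-treated hTNFtg versus WT kept direction and side of the rule in all 14 alternatives each. Where a value or call moved, the cause was not tested. The number of the 10 genes called in hTNFtg versus WT fell from 2 to 1 with a pseudocount of 5 and to 1 with a mean of at least 10, where Dusp4 is not tested, and was 1 to 4 with single libraries left out (1 without WT replicate 2 or 3, 4 without hTNFtg replicate 2, which added Spry4 and Spred1). Spry1 passed the rule there with array quality weights, with all 9 libraries in one fit and with the replicate block (1.62, unadjusted P = 0.0337). In infliximab-treated hTNFtg versus WT the 10 genes had 3 to 5 calls over all alternatives (4 with all libraries), with Etv1 gained by edgeR and without infliximab replicate 2, and Dusp4, at 1 read in each remaining infliximab library, gained without infliximab replicate 1 (unadjusted P = 0.0147). In infliximab versus untreated hTNFtg it was 0 to 1 (Etv4 without hTNFtg replicate 3, Spry2 without hTNFtg replicate 2). Other pathway genes called numbered 5 to 10 with single libraries left out of hTNFtg versus WT (8 with all, 5 without WT replicate 3), 0 to 3 in infliximab versus untreated hTNFtg and 7 to 13 in infliximab-treated hTNFtg versus WT (8 with all), where 13 came without WT replicate 1. In infliximab versus untreated hTNFtg they numbered 0 with all genes, 2 with a mean of at least 10, and 1 each with array quality weights, all 9 libraries in one fit and the replicate block.

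Log2 fold changes that turned sign all belong to genes not called. Etv4 in hTNFtg versus WT was -0.017 with a pseudocount of 0.5 and -0.96 to 2.14 with single libraries left out. Dusp5 was -0.48 to 0.20 in hTNFtg versus WT, -0.43 to 0.52 in infliximab versus untreated hTNFtg and -0.60 to 0.35 in infliximab-treated hTNFtg versus WT with single libraries left out, and 0.16 there by edgeR. Spry1 in infliximab versus untreated hTNFtg was -0.0053 with a pseudocount of 5 and -0.30 to 0.47 with single libraries left out. Spry4 in infliximab-treated hTNFtg versus WT was -0.020 with array quality weights and -0.24 to 0.76 with single libraries left out.

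The replicate numbers were not taken as pairs, since same-numbered deviations did not all correlate above 0.1. Their correlations were 0.29, -0.14 and 0.35 in hTNFtg versus WT and 0.10, -0.15 and 0.013 in infliximab-treated hTNFtg versus WT. In infliximab versus untreated hTNFtg all 3 were positive (0.070, 0.197 and 0.265), and infliximab replicates 2 and 3 correlated best with their own number, so whether those samples are paired is not settled by this check. With the replicate block the genes with an adjusted p under 0.05 went from 137 to 0 in hTNFtg versus WT and from 209 to 0 in infliximab-treated hTNFtg versus WT, and the 10 genes had 3, 0 and 4 calls in the 3 comparisons. The count of 137 became 1004 with array quality weights and 922 by edgeR, and the 0 of infliximab versus untreated hTNFtg became 65 and 165. With single libraries left out, the 137 became 1 to 44 and the 209 became 0 to 1. In the fit over all 9 libraries the 137 became 381 and the 209 became 69, and by edgeR the 209 became 1322. The depth of hTNFtg replicate 1 limits what can be said of Etv1, Etv4, Dusp4, Dusp5, Spry1, Spry2 and Spry4, each at 6 reads or fewer there, and of the pathway genes named, Gab1, Spred2, Spred3, Il17rd, Map3k8, Phlda1, Epha2 and Fgfr3, at 3 or fewer.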
